A study of Mus musculus with 8 samples.

Results

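The 9 genes described here are transcribed by hepatocytes around the central vein of the liver and depend there on Wnt signaling: *Glul*, *Rhbg*, *Oat*, *Axin2*, *Tbx3*, *Rgn*, *Gulo*, *Lect2* and *Lhpp*. They were chosen by gene name, and all 9 were found among the 14506 genes of a table of normalized read counts and passed the filter on low values (mean normalized count of at least 10), as did 11174 genes in all. The table came from 3′ RNA sequencing of whole liver from 8 young mice, 4 *Rragc* +/+ and 4 *Rragc* S74N/+. *Rragc* encodes RagC, a GTPase of the lysosomal surface that relays amino acid sufficiency to the kinase complex mTORC1. The S74N allele is a germline knock-in made by Cas9 editing, so the substitution was carried on 1 allele in every cell type of the *Rragc* S74N/+ mice, and the repair template also held silent changes. The *Rragc* +/+ mice carried no edited allele and no mouse of either genotype received a treatment named in the labels. *Rragc* +/+ replicates 1 to 3 and *Rragc* S74N/+ replicates 1 and 2 were 3 months old, replicate 4 of *Rragc* +/+ and replicate 3 of *Rragc* S74N/+ were 2.5 months old, and replicate 4 of *Rragc* S74N/+ was 2 months old. Genotype and the age of 2 months therefore cannot be told apart in that last liver, and sex and background strain were not given in the labels.

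In the liver lobule, blood runs from the portal tract to the central vein and hepatocytes along this path carry different enzymes. Endothelial cells of the central vein secrete Wnt ligands and R-spondin 3, which stabilize β-catenin in the neighboring hepatocytes and switch on a pericentral program with glutamine synthetase as its best known member. Pericentral hepatocytes take up the ammonia that escaped the urea cycle of the periportal cells and fix it into glutamine. In whole tissue, fewer pericentral hepatocytes and less RNA per pericentral hepatocyte cannot be told apart.

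All 9 genes are protein coding in GENCODE M21 on GRCm38, a neighboring release of the annotation that the authors counted against. *Glul* lies at chr1:153899944-153909723 on the forward strand, *Rhbg* at chr3:88242874-88254709 on the reverse strand, *Axin2* at chr11:108920349-108950783 on the forward strand and *Tbx3* at chr5:119670669-119684724 on the forward strand. *Rgn* is at chrX:20549787-20562089 on the forward strand, *Gulo* at chr14:65986786-66009207 on the reverse strand and *Lect2* at chr13:56542464-56548502 on the reverse strand. *Oat*, at chr7:132557478-132576398 on the reverse strand, and *Lhpp*, at chr7:132610638-132706420 on the forward strand, are neighbors that point away from each other across 34239 bases. Of the 1937 exonic bases of *Rhbg*, 1190 are shared with *Gm38392*, a gene of the same strand that the table did not list, so reads over these bases are uncertain in origin.

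β-Catenin acts on DNA through TCF and LEF factors, whose core recognition sequence reads CTTTGA. RefSeq promoters on GRCm38.p6, each reaching from 250 bases before to 50 bases after the start of the gene, were at hand for 4 of the 9 genes: *Axin2*, *Glul*, *Lect2* and *Oat*. Promoters of *Rgn*, *Lhpp*, *Tbx3*, *Rhbg* and *Gulo* were not analysed here. The 60 bases just before the RefSeq start are given 5′ to 3′ on the strand of the gene, because the core letters occurred there in 1 of the 4, and capitals mark this match. The windows are chr13:56548539-56548598 (reverse strand) for *Lect2*, chr1:153899869-153899928 (forward) for *Glul*, chr7:132576399-132576458 (reverse) for *Oat* and chr11:108920289-108920348 (forward) for *Axin2*.
Lect2: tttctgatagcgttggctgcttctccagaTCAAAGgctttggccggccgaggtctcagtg
Glul: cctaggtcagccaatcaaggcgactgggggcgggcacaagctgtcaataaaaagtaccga
Oat: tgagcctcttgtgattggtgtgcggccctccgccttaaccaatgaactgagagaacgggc
Axin2: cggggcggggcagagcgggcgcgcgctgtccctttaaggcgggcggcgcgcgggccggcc
In *Lect2* the letters lie on the opposite strand and are printed as TCAAAG, with their first base at position -31 from the start. Searched on both strands over the whole 300 bases, the letters were absent from the other 3 promoters, and they occurred in 5257 of 32851 RefSeq promoters (16.0%). Guanine and cytosine made up 70.0% of the *Axin2* promoter, 64.3% of that of *Glul*, 61.7% of that of *Oat* and 48.0% of that of *Lect2*. These matches describe the letters of short windows and say nothing of binding.

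The 9 genes spanned a wide range of levels. Because the kit reads the 3′ end of each transcript, counts scale with copies of a transcript and not with its length, and levels of different genes were compared without correcting for length. The mean normalized count over the 8 livers was 4746 for *Rgn*, 3105 for *Glul*, 1041 for *Gulo*, 828 for *Oat*, 715 for *Lect2*, 203 for *Tbx3*, 109 for *Rhbg*, 80.5 for *Lhpp* and 16.3 for *Axin2*. *Rgn* and *Glul* thus stood at the 99.0th and 98.3rd percentile of the tested genes, and *Axin2* at the 10.8th. The order held in all 8 livers between *Glul* and *Gulo*, between *Lect2* and *Tbx3* and between *Lhpp* and *Axin2*. Other neighbors changed places from liver to liver: *Rgn* exceeded *Glul* in 6 livers, *Gulo* exceeded *Oat* in 5 and *Oat* exceeded *Lect2* in 4. No test between genes was run. *Tbx3* exceeded *Rhbg* in 6 livers and *Rhbg* exceeded *Lhpp* in 7.

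To ask whether the pericentral program differed between the genotypes, the livers of *Rragc* S74N/+ and *Rragc* +/+ mice were compared gene by gene. None of the 9 genes passed the test. With limma, fitted to all 11174 tested genes with Benjamini-Hochberg adjustment over all of them, 0 of the 9 genes had an adjusted p under 0.05, where 0.00895% of all tested genes did (1 gene, none of the 9). At an unadjusted p under 0.05 the count was again 0 of 9 with limma, against 5.17% of all tested genes, 2.37% higher and 2.80% lower in *Rragc* S74N/+. On the recovered reads, edgeR had 0 of the 9 at an adjusted p under 0.05 and 0 at an unadjusted p under 0.05, and DESeq2 had 0 and 1, the latter being *Axin2*. Among all tested genes, 618 of 11174 had an unadjusted p under 0.05 with edgeR and 675 of 11162 with DESeq2. The 2 genotypes overlapped in every gene, while 2.94% of all tested genes separated them. Log2 fold changes are given throughout as *Rragc* S74N/+ minus *Rragc* +/+ on the scale of log2(normalized count + 1), on which 5 of the 9 genes were above 0 and 4 below, with a median of 0.07 against 0.01 over all tested genes. Leaving out 1 liver at a time moved this median between -0.22, without *Rragc* +/+ replicate 3, and 0.23, without *Rragc* +/+ replicate 2, and it was below 0 in 6 of the 8 fits. A group of 4 against 4 livers allows an exact two-sided permutation p no lower than 0.0286.

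**Figure D1:**
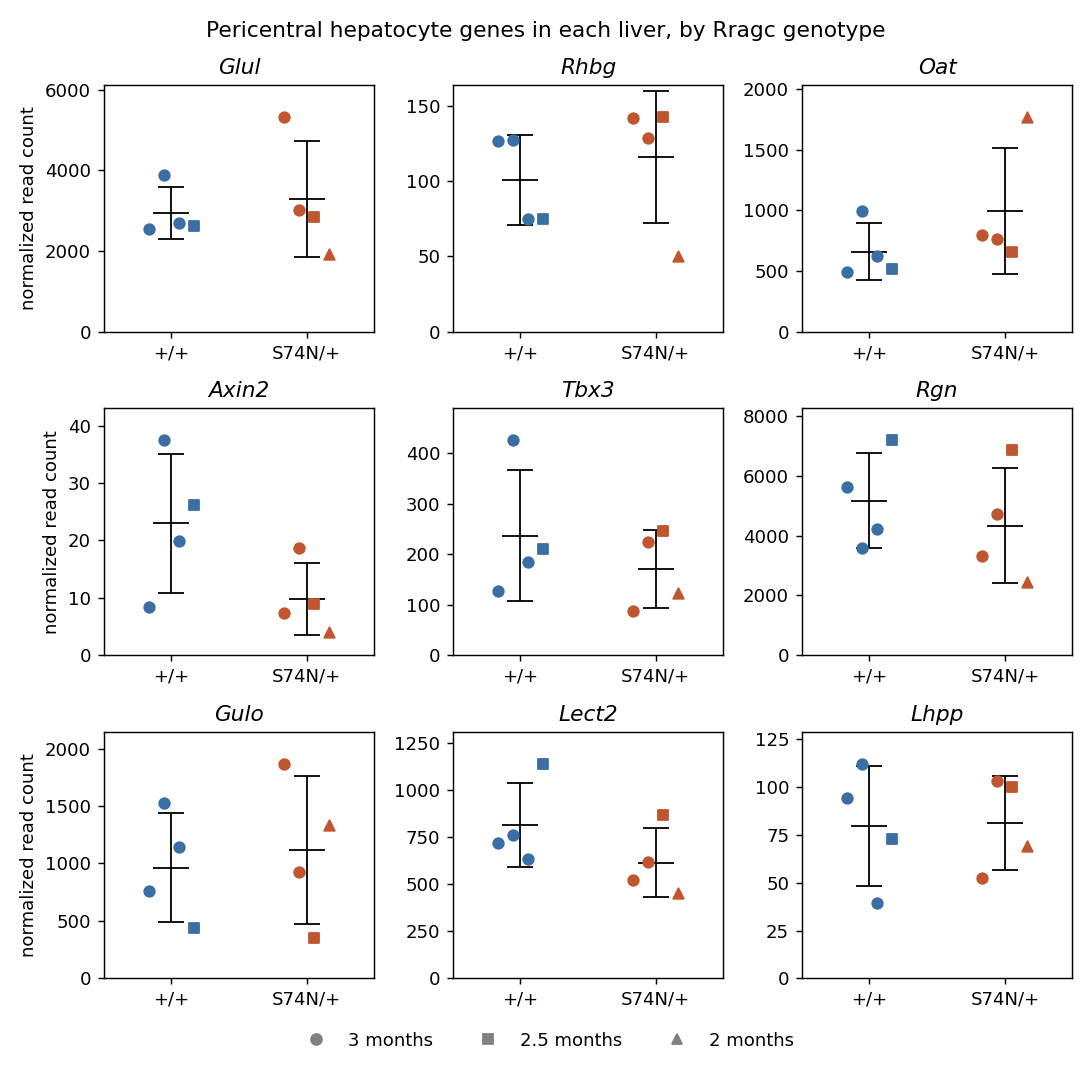
Normalized read count of each gene in each liver, on linear axes from 0, with *Rragc* +/+ and *Rragc* S74N/+ livers side by side. Points are single livers, with circles for an age of 3 months, squares for 2.5 and triangles for 2, and bars give the mean ± SD of 4 livers. In each of the 9 panels the points of the 2 genotypes overlap.

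*Glul*, *Rhbg* and *Oat* handle ammonia and its neighbors glutamate and ornithine. *Glul* encodes glutamine synthetase, which fixes ammonia to glutamate. Its normalized counts, with the livers of each genotype in the order of replicates 1 to 4 here and for the genes that follow, were 2532, 3885, 2699 and 2613 in *Rragc* +/+ and 5316, 3017, 2847 and 1933 in *Rragc* S74N/+. The highest and the lowest liver were both *Rragc* S74N/+, so that the range of *Rragc* +/+ fell inside that of *Rragc* S74N/+. The means were 2932 ± 639 and 3278 ± 1439.5 (SD, n = 4 each). The log2 fold change was 0.09 ± 0.28 (SE), with a 95% interval of -0.52 to 0.69 (limma adjusted p = 0.955, exact permutation p = 0.771). With 1908 to 5790 reads behind each value, counting error was small against this spread. Without *Rragc* S74N/+ replicate 1, the liver with the highest value, the log2 fold change was -0.18.

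*Rhbg* encodes an ammonium transporter of the Rhesus family in the basolateral membrane. It was at 127, 127, 75.0 and 74.7 in *Rragc* +/+ and at 142, 129, 143 and 50.6 in *Rragc* S74N/+. The low value was that of the 2-month-old mouse, and the other 3 *Rragc* S74N/+ livers lay above all *Rragc* +/+ livers. The means of 101 ± 30.1 and 116 ± 44.1 (SD, n = 4 each) gave a log2 fold change of 0.14 ± 0.35 (SE) and an interval of -0.62 to 0.90 (limma adjusted p = 0.939, exact permutation p = 0.743). Leaving out the 2-month-old mouse raised the log2 fold change to 0.49, still without passing the test (limma unadjusted p = 0.104).

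*Oat* encodes ornithine aminotransferase, the mitochondrial enzyme that converts ornithine toward glutamate. Counts were 495, 997, 627 and 519 in *Rragc* +/+, and 798, 766, 655 and 1769 in *Rragc* S74N/+. The 2-month-old *Rragc* S74N/+ liver, lowest of the 8 for *Glul* and *Rhbg*, was the highest for *Oat*, and the remaining 7 livers lay between 495 and 997. Group means were 659 ± 232 and 997 ± 518 (SD, n = 4 each), and the log2 fold change of 0.54 ± 0.32 (SE) had an interval of -0.15 to 1.22 (limma adjusted p = 0.846, exact permutation p = 0.229). Without that liver it was 0.22. Without *Rragc* +/+ replicate 2 it was 0.75 and without *Rragc* S74N/+ replicate 3 it was 0.70 (limma unadjusted p = 0.0357 and 0.0474, adjusted p = 0.787 and 0.327). In these fits 606 of 11194 and 1682 of 11182 tested genes had an unadjusted limma p under 0.05.

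*Axin2* and *Tbx3* are regulators. *Axin2* encodes a scaffold of the complex that degrades β-catenin, and is itself switched on by Wnt signaling as a feedback. It was at 8.39, 37.4, 19.8 and 26.2 in *Rragc* +/+ and at 7.34, 18.7, 8.92 and 4.08 in *Rragc* S74N/+. The 3 highest livers were *Rragc* +/+, but *Rragc* +/+ replicate 1 was below 2 of the *Rragc* S74N/+ livers. Means were 22.9 ± 12.1 and 9.75 ± 6.27 (SD, n = 4 each). This was the gene of the 9 with the lowest counts (5 to 40 reads per liver) and the greatest difference, a log2 fold change of -1.16 ± 0.58 (SE) and an interval of -2.42 to 0.11 that includes 0 (limma unadjusted p = 0.0695 and adjusted p = 0.846, exact permutation p = 0.0857). DESeq2 gave an unadjusted p of 0.0444 and an adjusted p of 0.808. Leaving out *Rragc* +/+ replicate 1 gave an unadjusted limma p of 0.0207 and leaving out *Rragc* S74N/+ replicate 2 one of 0.0309, with adjusted p of 0.983 and 0.880. In these fits 334 of 11198 and 543 of 11171 tested genes had an unadjusted limma p under 0.05. In the 5 livers of 3-month-old mice alone the log2 fold change was -0.61.

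*Tbx3* encodes a T-box transcriptional repressor that β-catenin activates in liver. Its counts were 127, 426, 184 and 211 in *Rragc* +/+ and 86.3, 225, 245 and 122 in *Rragc* S74N/+. A single liver, *Rragc* +/+ replicate 2, stood above the other 7, and it was also the highest for *Axin2* and *Lhpp*. The means were 237 ± 131 and 169.7 ± 77.3 (SD, n = 4 each), with a log2 fold change of -0.46 ± 0.39 (SE) and an interval of -1.31 to 0.39 (limma adjusted p = 0.847, exact permutation p = 0.457). Without that liver the log2 fold change of *Tbx3* was -0.13.

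*Rgn* and *Gulo* act in succession in the synthesis of vitamin C, which mice make in liver. *Rgn* encodes regucalcin, the gluconolactonase that forms L-gulonolactone, and *Gulo* encodes L-gulonolactone oxidase, the last enzyme of the path. Counts of *Rgn* were 5632, 3599, 4232 and 7186 in *Rragc* +/+, and 3309, 4725, 6855 and 2432 in *Rragc* S74N/+. Counts of *Gulo* were 756, 1523, 1146 and 434 in *Rragc* +/+, and 1867, 925, 349.9 and 1331 in *Rragc* S74N/+. In both genotypes the 2.5-month-old mouse had the highest *Rgn* and the lowest *Gulo* of its group. *Rgn* averaged 5162 ± 1594 and 4330.2 ± 1930.1 (SD, n = 4 each), giving a log2 fold change of -0.31 ± 0.32 (SE) and an interval of -0.99 to 0.37 (limma adjusted p = 0.853, exact permutation p = 0.457). With 1 liver left out the value for *Rgn* lay between -0.57, without *Rragc* S74N/+ replicate 3, and -0.07, without *Rragc* S74N/+ replicate 4. *Gulo* averaged 965 ± 472 and 1118 ± 641 (SD, n = 4 each), giving a log2 fold change of 0.12 ± 0.47 (SE) and an interval of -0.90 to 1.14 (limma adjusted p = 0.961, exact permutation p = 0.886). The sign for *Gulo* rested on single livers, since leaving out 1 liver at a time moved the log2 fold change between -0.21, without *Rragc* +/+ replicate 4, and 0.60, without *Rragc* S74N/+ replicate 3. These are the 2.5-month-old mice, and without both of them the value for *Gulo* was 0.27. It was also below 0 without *Rragc* S74N/+ replicate 1, at -0.20, and without *Rragc* S74N/+ replicate 4, at -0.04.

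*Lect2* encodes a protein that hepatocytes secrete into blood, and its transcription follows β-catenin. It was the steadiest of the 9, at 719.7, 760.3, 635 and 1141 in *Rragc* +/+ and 522, 619, 869 and 454 in *Rragc* S74N/+. In both genotypes the 2.5-month-old mouse was the highest, and 3 of the 4 *Rragc* S74N/+ livers lay below every *Rragc* +/+ liver. The means were 814 ± 224 and 616 ± 182 (SD, n = 4 each), and the log2 fold change of -0.41 ± 0.25 (SE) had an interval of -0.95 to 0.13 (limma adjusted p = 0.846, exact permutation p = 0.171). With 1 liver left out it lay between -0.59, without *Rragc* S74N/+ replicate 3 (limma unadjusted p = 0.0244, adjusted p = 0.281), and -0.23, without *Rragc* +/+ replicate 4 (limma unadjusted p = 0.363). Without *Rragc* S74N/+ replicate 3, 1682 of 11182 tested genes had an unadjusted limma p under 0.05.

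*Lhpp* encodes a phosphatase that removes phosphate from histidine residues of proteins. It was at 94.2, 112, 39.6 and 72.9 in *Rragc* +/+ and at 52.3, 103, 100.3 and 69.3 in *Rragc* S74N/+, from 28 to 120 reads per liver. The lowest and the highest liver were both *Rragc* +/+. Means of 79.7 ± 31.2 and 81.3 ± 24.6 (SD, n = 4 each) gave a log2 fold change of 0.07 ± 0.35 (SE) and an interval of -0.68 to 0.82 (limma adjusted p = 0.967, exact permutation p = 0.886). Its sign changed with several settings and with the liver left out.

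**Figure D2:**
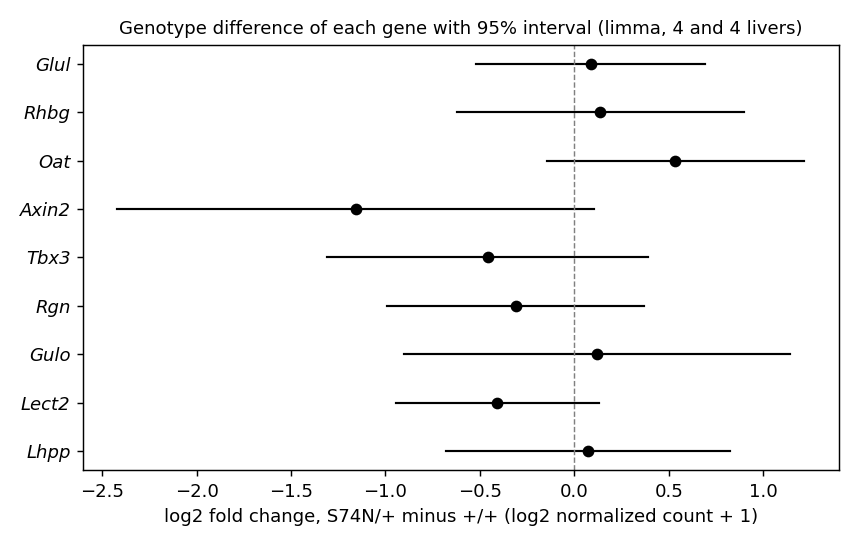
Log2 fold change of each gene, *Rragc* S74N/+ minus *Rragc* +/+, on the log2(normalized count + 1) scale, with points for the limma estimate and lines for the 95% interval over 4 and 4 livers. Every interval includes 0, and that of *Axin2*, from -2.42 to 0.11, is the widest.

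The intervals bound what these 8 livers can show. An increase of 1 on the log2 scale lay inside the interval for *Oat* and *Gulo* and outside it for the other 7 genes. A decrease of 1 lay inside the interval for *Axin2* and *Tbx3* and outside it for the other 7.

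The 9 genes varied more from liver to liver than most genes of like abundance. Over the 8 livers, the SD of the log2 value was 0.42 for *Lect2*, 0.44 for *Glul*, 0.52 for *Lhpp*, 0.54 for *Rgn*, 0.55 for *Rhbg*, 0.59 for *Oat*, 0.71 for *Tbx3*, 0.86 for *Gulo* and 0.99 for *Axin2*. Set beside the 250 tested genes next above and the 250 next below in mean level (191 above for *Glul* and 113 for *Rgn*, near the top of the range), these SDs stood between the 70.1st percentile, for *Glul* and *Lhpp*, and the 97.6th, for *Gulo*, with *Tbx3* at the 95.8th. *Rragc* itself, the edited gene, had an SD of 0.24, at the 8.78th percentile of its neighbors, and its mean count was 84.1 ± 20.4 in *Rragc* +/+ against 76.6 ± 7.32 in *Rragc* S74N/+ (SD, n = 4 each). The ratio of the highest to the lowest liver ran from 2.51 for *Lect2* and 2.75 for *Glul* to 5.33 for *Gulo* and 9.17 for *Axin2*. The percentiles describe these livers, and the neighbors of a gene share its depth but were not matched on anything else.

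The genes did not vary as a block. For each of the 36 pairs, the SD over the 8 livers of the log2 ratio of their levels was taken as a measure of likeness, a low SD meaning that the ratio stayed near one value across livers. It was lowest for *Rgn* with *Lect2*, at 0.27, and next for *Glul* with *Rhbg*, at 0.40. The median over the pairs was 0.80 and the highest value 1.36, for *Axin2* with *Gulo* and, to 2 decimals, for *Rgn* with *Gulo*. Among the 4883 other tested genes with a mean of at least 100, those most like *Glul* by this measure were *Ces3b* (0.22), a carboxylesterase of the endoplasmic reticulum, *Efhd2* (0.23), a calcium-binding protein, *Sar1b* (0.24), a GTPase of vesicle export, *Tnk2* (0.25), a tyrosine kinase, and *Ankrd46* (0.25), against a median of 0.57. *Rhbg* was at rank 361 of the 4883, *Lect2* at 3179, *Rgn* at 4126, *Gulo* at 4376, *Oat* at 4388 and *Tbx3* at 4545. All points of this measure share the same 8 livers and their scaling. The measure also grows with the spread of each gene, counting error of low genes such as *Axin2* included. A gene that was flat across the livers would score 0.44 against *Glul*, the SD of *Glul* itself.

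**Figure D3:**
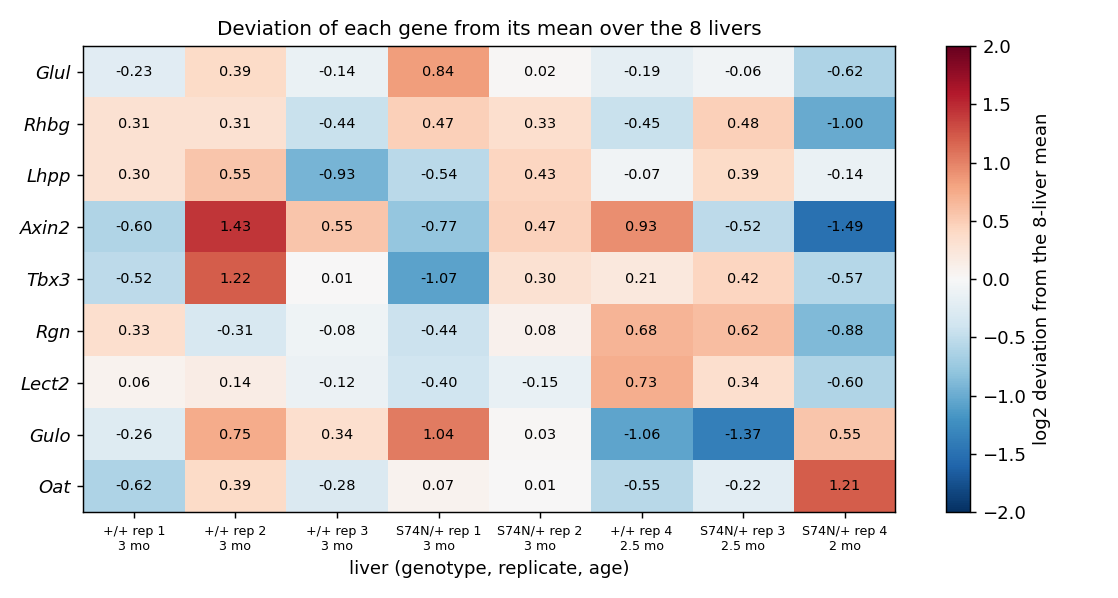
Log2 level of each gene (rows) in each liver (columns), as the deviation from the mean of that gene over the 8 livers, with color giving the size and direction. The column of *Rragc* S74N/+ replicate 4, the 2-month-old mouse, holds the lowest value of 5 genes and the highest of *Oat*, and both 2.5-month-old columns are high for *Rgn* and *Lect2* and low for *Gulo*.

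Both 2.5-month-old livers, 1 of each genotype, lay on the same side of the other 6 livers in 3 of the 9 genes, where 22.2% of all tested genes separated these livers in either direction. *Rgn* was at 6855 to 7186 in them, against 2432 to 5632 elsewhere. *Lect2* was at 869 to 1141, against 454 to 760.3. *Gulo* was lower there, at 349.9 to 434 against 756 to 1867. *Glul* in these livers (2613 to 2847) overlapped the other 6, as did *Oat*, *Axin2*, *Tbx3*, *Rhbg* and *Lhpp*. This grouping was described after the values were seen and carries no test. Without the 2.5-month-old livers the log2 fold change of *Rhbg* was -0.12 and that of *Lhpp* -0.05, both opposite in sign to the value over 8 livers, while *Rgn* was at -0.39, *Lect2* at -0.41 and *Gulo* at 0.27.

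Some clock genes also separated these 2 livers. *Arntl*, a clock gene that peaks around dawn in liver, was at 20.1 to 21.5 in them against 56.6 to 146 in the other 6, and *Dbp*, which peaks near dusk, was at 57.9 to 126 against 3.74 to 11.3. Of the clock genes tested, 1 of 3 that peak near dawn and 3 of 6 that peak near dusk separated these 2 livers from the rest, and the dusk genes summed to 979 and 1546 in them against 427 to 784 elsewhere. The dawn genes summed to 541 and 464, which overlapped the 497 to 701 of the other 6. The part of sampling time in the levels of *Rgn*, *Gulo* and *Lect2* was not tested, and age and time of sampling cannot be told apart here.

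*Rragc* S74N/+ replicate 4, the 2-month-old mouse, held the lowest value of the 8 livers for *Glul*, *Axin2*, *Rgn*, *Rhbg* and *Lect2*, 5 of the 9 genes, where this liver was lowest for 18.4% of all tested genes. It was highest for *Oat*, where 17.0% of all tested genes peaked in this liver. *Gls2*, the periportal glutaminase that releases ammonia from glutamine, was at 2850 in this liver against 247 to 887 in the other 7. *Cps1*, which takes ammonia into the urea cycle, was at 6977 against 1024 to 3006. The highest values of *Gls2* and *Cps1* and the lowest of *Glul* and *Rhbg* thus fell in the same liver. Of 16 other pericentral genes, though, this liver was lowest for 3 and highest for 4. Of 19 periportal genes it was highest for 14 and lowest for 1, *Cyp2f2*. The same liver was lowest for 10 of 11 genes that are higher in male liver, whose summed normalized count was 17793 there. This sum also ran with genotype, at 72486 to 81663 in *Rragc* +/+ and 17793 to 62336 in *Rragc* S74N/+. All 11 genes had a log2 fold change below 0, with a median of -1.06 (-0.41 and 10 of 11 below 0 without this liver). With limma, 0 passed the adjusted threshold and 5 of the 11 had an unadjusted p under 0.05, beside 5.17% of all tested genes. Of 10 genes that are higher in female liver only 2 were listed. Their summed normalized count was 88.9 in the 2-month-old mouse and 6.55 to 19.8 in the other 7 livers. The part of these patterns in the levels of the 9 genes was not tested.

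Other genes of the pathway and of liver zonation were examined as lists, by their counts and medians. Other pericentral enzymes and regulators, 16 genes, had 0 past the adjusted threshold with limma, and 11 of the 16 had a log2 fold change above 0, with a median of 0.24 against 0.01 over all tested genes. The median was 0.011 without *Rragc* +/+ replicate 4 (9 of 16 above 0), 0.050 without *Rragc* S74N/+ replicate 1 and 0.043 in 3-month-old mice alone. At an unadjusted p under 0.05 there was 1 of 16, near the share of 5.17% over all tested genes. This was *Cyp2a5*, a cytochrome P450 that oxidizes coumarin. Its count was 99.7, 81.4, 122 and 29.0 in *Rragc* +/+ and 232, 108, 124 and 239 in *Rragc* S74N/+, so that the genotypes overlapped. The log2 fold change was 1.16 ± 0.42 (SE) (limma unadjusted p = 0.0161, adjusted p = 0.846), and reads of this gene are uncertain between close paralogs. It was 0.72 without *Rragc* +/+ replicate 4 and 0.67 in 3-month-old mice alone (limma unadjusted p = 0.0467 and 0.0763). *Cyp1a2*, the most abundant of the list and an enzyme of caffeine metabolism, was at 9458 ± 545 and 6889 ± 2282 (SD, n = 4 each), giving a log2 fold change of -0.53 ± 0.26 (SE) (limma adjusted p = 0.846), and its lowest value, 3683, was that of the 2-month-old mouse. *Cyp2c29*, the next most abundant, had a log2 fold change of 0.17.

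Wnt feedback and target genes other than *Axin2* and *Tbx3* numbered 8 after the filter, out of 12 looked up, and 4 were above 0 and 4 below. The count at an unadjusted p under 0.05 was 0 with limma, and the median log2 fold change was 0.01, or -0.21 to 0.14 with 1 liver left out. *Ccnd1*, which encodes cyclin D1, was at 257 ± 131 and 239.6 ± 48.9 (SD, n = 4 each). *Nkd1*, an inhibitor of the pathway that Wnt induces, was at 29.7 ± 1.52 and 28.8 ± 17.5 (SD, n = 4 each), with a wider spread in *Rragc* S74N/+ from 13.9 to 53.3. *Notum*, whose product inactivates Wnt ligands, was at 0 to 0.93 in the 2.5-month-old livers (at most 1 read) and at 3.73 to 42.4 in the other 6.

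Ligands, receptors and their partners were tested for 15 of 21 genes, and 8 had a log2 fold change above 0 and 7 below, with a median of 0.01 and 0 at an unadjusted p under 0.05 with limma. *Rspo3*, the R-spondin of the central vein, was at 48.5, 50.5, 45.3 and 28.0 in *Rragc* +/+ and at 40.4, 41.8, 22.3 and 33.4 in *Rragc* S74N/+, lowest in both 2.5-month-old livers. *Wnt2*, a ligand of liver endothelium, was at 2.45 in the 2-month-old mouse and at 5.66 to 22.4 elsewhere. *Fzd4* and *Lrp6*, a receptor and a coreceptor and the most abundant of the list, had log2 fold changes of -0.12 and 0.23. *Lrp5*, the other coreceptor, was at 1.87 to 5.57 in the 2.5-month-old livers against 40.1 to 56.6 in the other 6.

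The intracellular relay, 19 genes from the dishevelled proteins to the TCF factors, had 9 above 0 and 10 below, a median of -0.02 and 0 at an unadjusted p under 0.05 with limma. *Csnk1a1* and *Gsk3b*, kinases that mark β-catenin for degradation, had log2 fold changes of -0.02 and -0.06 with standard errors of 0.17 and 0.20.

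Periportal genes, at the other end of the lobule, had 16 of 19 above 0, a median log2 fold change of 0.56 and 0 past the adjusted threshold with limma. Beside 5.17% of all tested genes, 3 of the 19 had an unadjusted p under 0.05. These were *Sds*, serine dehydratase, at 2.64 ± 0.90 (SE), *Pck1*, the gluconeogenic phosphoenolpyruvate carboxykinase, at 1.18 ± 0.45 (SE), and *Ctsc*, cathepsin C, at 0.92 ± 0.29 (SE) (limma unadjusted p = 0.0118, 0.0207 and 0.00729, adjusted p = 0.846 for each). *Sds* was at 14.0, 14.0, 72.1 and 14.9 in *Rragc* +/+ and at 299, 29.3, 46.8 and 919 in *Rragc* S74N/+. *Sds* and *Ctsc* kept an unadjusted p under 0.05 in every other setting, and did not pass the adjusted threshold in any. *Pck1* had an unadjusted limma p of 0.0729 without *Rragc* +/+ replicate 1 and of 0.0570 without *Rragc* S74N/+ replicate 4. That last liver, from the 2-month-old mouse, was the highest in 14 of the 19, and without it the list had 12 of 19 genes above 0 and a median of 0.26. *Cyp2f2* and *Ass1*, the most abundant of the list, had log2 fold changes of -0.12 and 0.24.

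Other genes of ammonia, glutamine and ornithine handling, 11 tested of 15, had 10 above 0 and a median of 0.29, with 0 at an unadjusted p under 0.05 with limma. Their summed normalized count was 9750 to 10066 in *Rragc* +/+ and 10362 to 18255 in *Rragc* S74N/+, so the sums did not overlap. The genotypes overlapped in each single gene of the list, and the sums were not tested. The 2-month-old mouse held the highest value in 8 of the 11. Without it the median was 0.07, with 8 of 10 tested genes above 0. *Glud1*, glutamate dehydrogenase, was at 0.07 and *Slc38a3*, a glutamine transporter, at 0.35. For the synthesis and uptake of vitamin C, 6 further genes had 4 above 0, a median of 0.17 and 0 at an unadjusted p under 0.05 with limma. *Akr1a1* and *Ugp2*, enzymes upstream of *Rgn*, were at -0.03 and 0.20.

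**Figure D4:**
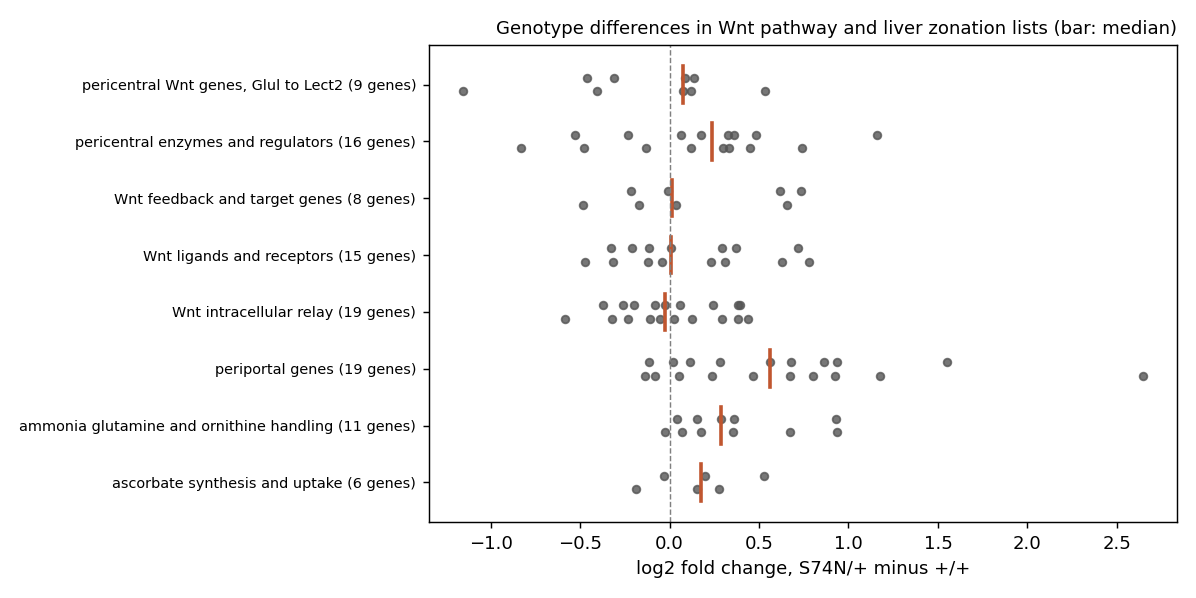
Log2 fold change of each tested gene, *Rragc* S74N/+ minus *Rragc* +/+, in the 9 genes and in 7 lists of Wnt pathway and liver zonation genes, with a bar at the median of each list. The medians run from -0.02 for the intracellular relay to 0.56 for the periportal genes.

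The libraries held between 4313076 and 6632108 recovered reads in listed genes. Marker sums showed liver in every sample, with 241470 to 351234 normalized counts over 7 hepatocyte genes in *Rragc* +/+ and 263285 to 465652 in *Rragc* S74N/+. Markers of central vein endothelium, 5 genes that include *Rspo3* and *Wnt2*, summed to 80.6 to 143 in *Rragc* +/+ and 55.5 to 106.5 in *Rragc* S74N/+, and all 3 tested ones had a log2 fold change below 0, with 0 at an unadjusted p under 0.05 with limma. Of 8 markers of sinusoidal endothelium 5 were above 0 and 3 below, with a median of 0.12. Their sums overlapped, at 1009 to 1350 in *Rragc* +/+ and 966 to 1380 in *Rragc* S74N/+. Among them *Lyve1*, at 1.03, and *Pecam1*, at 0.88, had an unadjusted p under 0.05 with limma. So did *Adgre1* (0.80) and *C1qc* (1.03) of the Kupffer cell list, *Col1a1* (0.96) of the stellate cell list and *Cela1* (-0.94) of pancreas, all with an adjusted p of 0.846. Of 8 Kupffer cell markers tested, 6 were above 0 and 2 below, with a median of 0.17. Of 5 stellate cell markers tested, 3 were above 0 and 2 below, with a median of 0.02. Among all tested genes 5.17% had an unadjusted p under 0.05 with limma. Markers of kidney, 5 genes of 9 looked up with *Kap* among them, totalled 87.7 to 183 in *Rragc* +/+ and 23.7 to 58.8 in *Rragc* S74N/+. Only *Kap* of these passed the filter, at a log2 fold change of -2.20 (limma unadjusted p under 0.05, adjusted p = 0.846). The pancreas list held only *Cela1* of 7 genes looked up. The part of any of these sums in the levels of the 9 genes was not tested.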

How the data were processed

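Reads were aligned by the authors to GRCm38 with TopHat2 2.0.10, Bowtie 1.0.0 and SAMtools 0.1.19 (versions from the submitters' processing notes), counted by strand with HTSeq 0.6.1 against GENCODE and scaled with DESeq. This scaled signal was deposited by the authors as normalized counts, with a column for each liver. Whole reads were recovered from it: 100% of the values were whole multiples, within 1e-06, of the smallest value of their library. Reads in listed genes numbered 4313076 to 6632108 per liver, and no molecular identifiers are stated for liver.

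limma 3.58.1 in R 4.3.3 (empirical Bayes with a mean-variance trend, genotype as the only term) was fitted to log2(normalized count + 1) for 11174 genes (mean normalized count of 10 or more), with Benjamini-Hochberg adjustment at 0.05. This log2 scale understates changes of low genes. Exact permutation tests were two-sided over all 70 labellings. edgeR 4.0.16 (quasi-likelihood) and DESeq2 1.42.0 were alternatives on recovered reads. Groups came from the genotype labels, each library is labelled as a separate sample, and replicate numbers follow sample order. Labels do not state separate animals, although the paper gives 4 mice of each genotype for liver. The p-values measure the spread between these samples.

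Genes and lists were chosen with earlier results of these data known. The text names the 9 genes, *Rragc*, the genes of the Wnt and zonation lists with an unadjusted limma p under 0.05, the 2 most abundant of each such list, the 5 genes most like *Glul*, and markers that moved with a gene; *Notum*, *Lrp5*, *Rspo3*, *Wnt2*, *Gls2*, *Cps1*, *Arntl*, *Dbp* and the cell type markers under 0.05 were chosen after their values were seen. Other settings were pseudocounts of 0.1 and 5, a minimum mean of 50 or none, upper-quartile or TMM scaling, array weights, no trend, only the 3-month-old mice, age in months in the model, and each liver left out. Leaving out the 2.5-month-old livers and age as a factor were added after seeing the data.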

Additional observations from a re-analysis of the deposited data

Results flagged for a closer look

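Over 22 values and sums examined in each genotype, 44 groups of 4 livers in all, 5 values lay far from the other 3 of their group, where chance gives about 1 in 20 groups, or 2.2. *Glul* was at 3885 in *Rragc* +/+ replicate 2, against 2532 to 2699 in the other *Rragc* +/+ livers. *Rhbg* was at 50.6 in *Rragc* S74N/+ replicate 4, the 2-month-old mouse, against 129 to 143. In *Rragc* S74N/+ replicate 3, markers of liver sinusoidal endothelium summed to 966 normalized counts against 1341 to 1380, and those of cholangiocytes to 118 against 364 to 386. Kidney markers summed to 183 in *Rragc* +/+ replicate 4 against 87.7 to 93.5.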

How the results depend on the processing

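No gene of the 9 and no gene of the pathway lists passed the adjusted threshold in any of the 22 other settings, and the lowest adjusted p ranged from 0.281 for *Lect2* to 0.868 for *Rhbg*. *Axin2* was not tested with a mean of at least 50. Of 125 log2 fold changes under the settings other than leaving out 1 liver, 121 kept their direction and 4 were reversed. These were *Lhpp* at -0.065 with array weights, at -0.027 in 3-month-old mice alone and at -0.055 without the 2.5-month-old livers, and *Rhbg* at -0.12 without the 2.5-month-old livers. Leaving out 1 liver at a time reversed 7 of 72, with ranges of -0.18 to 0.31 for *Glul*, -0.22 to 0.27 for *Lhpp* and -0.21 to 0.60 for *Gulo*. The causes were not tested. Among all genes, 1 passed in the limma fit, 10 with DESeq2, 1 with edgeR, 3 with age as a factor, 0 without the trend, with age as a covariate, in 3-month-old mice alone or without the 2.5-month-old livers (603, 415, 640 and 1209 at an unadjusted p under 0.05), and 0 to 2 with 1 liver left out. Of the 9 genes, 1 (*Axin2*) had an unadjusted p under 0.05 without the trend and with DESeq2, and 0 to 2 with 1 liver left out. Among all tested genes, 675 did with DESeq2 and 312 to 1682 with 1 liver left out. No scaling moved the median of all genes by 0.1. No paired analysis was possible because the labels hold no replicate numbers, and those used only name a liver. With 5 to 40 reads per liver, depth limits *Axin2* most.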
